A study of Mus musculus with 10 samples.

Results

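The ribosomal P-stalk genes are Rplp0, Rplp1 and Rplp2, which encode the proteins of the flexible stalk of the large ribosomal subunit. Their reads were taken as the table lines of class mRNA with a tail estimate tagged PASS and one of these 3 gene names, which gave 13716 reads of Rplp0, 20341 of Rplp1 and 8653 of Rplp2. These 42710 reads are 2.09% of the 2042110 kept reads of the series, which fell on 13272 genes. Each of the 3 genes had reads in all 10 libraries, from 455 to 4444 per library, and passed every filter on low values.

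P19 is a pluripotent mouse embryonal carcinoma cell line, undifferentiated and labelled wild type in all groups. Cells received 50 nanomoles of 1 siRNA against Larp1 (siLarp1) or a pool of scrambled siRNAs (siCtl), both with Lipofectamine 3000, and were collected after 24 h, or after 48 h with the same transfection repeated at 24 h. Poly(A) RNA was sequenced as native molecules on Nanopore flow cells in 3 siCtl and 3 siLarp1 libraries at 24 h and 2 and 2 at 48 h, which are named here by the library numbers of the deposited table. A second Larp1 siRNA was not used. The study calls the libraries of a group biological replicates without saying how the cultures were kept apart, and p-values measure the spread between these libraries. At 24 h the siCtl and siLarp1 libraries were pooled and sequenced apart, where the effects of the siRNA and of the pool cannot be told apart. All 4 libraries of 48 h shared 1 pool.

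In the ribosome, the protein P0 sits on the large subunit's rRNA beside RPL12 and carries dimers of P1 and P2. The acidic ends of these proteins bind the GTPase factors of translation, among them the elongation factors eEF1A and eEF2, and bring them to the ribosome. The mRNAs of ribosomal proteins begin with a 5′-terminal oligopyrimidine (TOP) motif, an unbroken run of C and T at the transcript's first bases. LARP1 binds the cap and this motif, and it is known for holding TOP mRNAs stable and for acting on their poly(A) tails.

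The sequences below are the places where the reads of each member began, shown because the TOP motif is the feature that LARP1 recognises. Each is the 30-base stretch of the member's most-read transcript around the commonest first aligned base, in the sense of the mRNA, with the longest run of C and T in capitals (GENCODE vM21, build GRCm38).
Rplp0, chr5:115559507-115559536, plus strand: cggcccgTCTCTCgccaggcgtcctcgttg
Rplp1, chr9:61914513-61914542, minus strand: gaTCTTTTCCTCagctgccgccaaggtgct
Rplp2, chr7:141447643-141447672, plus strand: gcgTCTTCCTTTCgccgccggacgccgccg

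The run was 6 bases long in Rplp0 and 10 bases long in Rplp1 and Rplp2. The commonest first aligned base lay 8 bases past the end of the run in Rplp0, 4 bases past it in Rplp1 and 8 bases past it in Rplp2. Nanopore reads of native RNA stop some bases short of the molecule's 5′ end, so the first base of the mRNA itself was not measured. Among the 1214 most-read transcripts that had at least 200 kept reads in all and were found in the annotation, 32.6% of such windows held a C/T run of at least 6 bases and 10.4% one of at least 10. Among the 76 other ribosomal protein genes the shares were 100% and 68.4%, so that Rplp1 and Rplp2 belonged to the longer runs and Rplp0 to the shorter ones. A run is a description of the letters and not a measured start site.

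The reads were mostly of full length. In Rplp0 79.9% of the reads of the main transcript began within 20 bases of the commonest base, in Rplp1 90.1% and in Rplp2 91.7%. For Rplp0 the share was 81.0% to 83.9% in the libraries of 24 h and 68.7% to 75.8% in those of 48 h. The plot of first aligned bases shows 1 narrow peak for each gene.

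**Figure D1:**
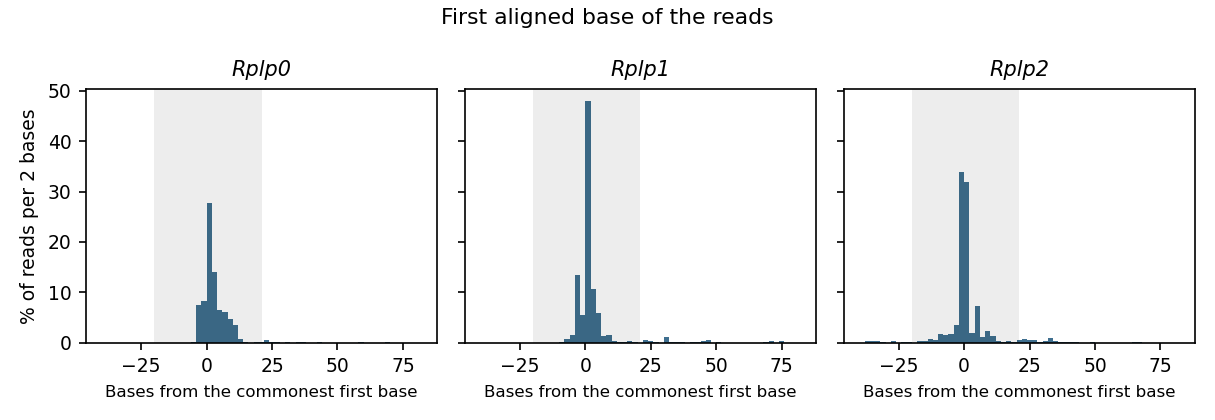
First aligned base of the kept reads of the main transcript of Rplp0, Rplp1 and Rplp2, all libraries together. The x axis is the distance in bases from the commonest first base, the y axis the percentage of reads per 2 bases, and the grey band marks 20 bases on either side, which holds 79.9%, 90.1% and 91.7% of the reads.

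The 3′ ends, where the measured tails are attached, were as narrow. The last 30 transcribed bases before the commonest end of the alignment are shown here with the polyadenylation signal AATAAA in capitals.
Rplp0, chr5:115563486-115563515, plus strand: gatggaAATAAAggcttacttctcttaaaa
Rplp1, chr9:61913284-61913313, minus strand: ttaagttggctAATAAAgagctgaacctgt
Rplp2, chr7:141451315-141451344, plus strand: gctcccctgcaAATAAAgtctttttatgta

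The signal ended 18 bases before the commonest last base in Rplp0 and 13 bases before it in Rplp1 and Rplp2, and it occurred 1 time in each transcript. The commonest last base was the annotated end in Rplp1 but lay 212 bases before the annotated end in Rplp0 and 241 bases before it in Rplp2. Within 20 bases of it ended 96.2% of the Rplp0 reads, 98.3% of the Rplp1 reads and 98.1% of the Rplp2 reads. In Rplp0 427 of 13715 reads (3.11%) ran more than 30 bases further. Their median tail was 96.4 nt, against 86.5 nt for reads that ended within 20 bases of the commonest site. Rplp2 had 0 such reads. An Rplp1 read could not be aligned further, as the transcript ends there.

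Nearly all Rplp0 reads (99.99%) and all Rplp1 reads were aligned to 1 transcript. For Rplp2 the main transcript took 95.8% of the reads and 2 transcripts with other annotated first exons took 2.77% (240 reads, median tail 96.3 nt) and 1.39% (120 reads, median tail 94.7 nt), against 104.9 nt in the main one. These transcripts share most of their sequence, and only 65.1% of the reads of the main transcript and 32.1% and 11.7% of the reads of the other 2 had a mapping quality of at least 10. The transcript of an Rplp2 read was therefore uncertain. Between 0.231% and 0.357% of the reads of the 3 genes had a second alignment listed. Of the Rplp2 reads only 0.231% had one, although many had a low mapping quality. The listed alignments therefore cannot show how certain the gene of a read was.

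Larp1 itself was lower in every siLarp1 library than in any siCtl library of its time. In reads per 1000000 kept reads (RPM), it had 75.9, 84.2 and 85.0 in the siCtl libraries of 24 h and 33.4, 44.9 and 19.1 in the siLarp1 libraries. The 48 h libraries had 169 and 123 with siCtl and 18.5 and 24.9 with siLarp1. These siLarp1 values rest on 3 to 6 reads per library. In the fit across all genes with limma voom the log2 change at 24 h was -1.28 ± 0.33 (SE) and the adjusted p (Benjamini-Hochberg) 0.388, while at 48 h the gene had too few reads to enter the fit. Of the pluripotency markers listed, 8 of 9 had reads (Zfp42 had none, Esrrb had 1 and Dppa5a had 8), with a summed level of 3050 to 4098 RPM. Most of this sum was Pou5f1, with 2277 to 3028 RPM. Neuron markers summed to 191 to 366, nearly all of it Stmn2 and Tubb3. Over all libraries Map2 had 4 reads, Dcx 6 and Neurod1 0. Endoderm and mesoderm markers, nearly all of it T, summed to 23.2 to 82.8 at 24 h and 151 to 415 at 48 h. The part of any such cells in the values below was not tested.

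Since 1 native RNA molecule gives 1 read, levels of different genes were compared in RPM without scaling to length. Rplp1 was the most read of the 79 ribosomal protein genes in siCtl cells at 24 h, Rplp0 was the third and Rplp2 was at rank 23. At 24 h the siCtl libraries had 6945 ± 19.8 RPM of Rplp0, 9950 ± 519 of Rplp1 and 4352 ± 174 of Rplp2 (SD, n = 3). The ratio of Rplp1 to Rplp0 reads ran from 1.36 to 1.64 over the 10 libraries and that of Rplp2 to Rplp0 from 0.533 to 0.685. The mRNAs of the dimer partners P1 and P2 were thus read at unequal levels, with 2.15 to 2.75 Rplp1 reads for each Rplp2 read.

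The 3 members had different tails, and the order was the same in every library. Rplp2 had the longest median tail, Rplp1 the next and Rplp0 the shortest. In the siCtl libraries of 24 h the median was 107 ± 1.99 nt for Rplp2, 95.9 ± 3.06 nt for Rplp1 and 88.8 ± 2.04 nt for Rplp0 (SD, n = 3). Among the 79 ribosomal protein genes, whose median tails in these libraries ran from 80.8 to 112 nt, Rplp2 stood at rank 9 from the longest, Rplp1 at rank 49 and Rplp0 at rank 71.

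Within a library the Rplp0 median less the Rplp2 median ran from -21.1 to -11.8 nt, and its mean of -17.6 ± 3.31 nt (SD, n = 10 libraries) gave p = 0.00195 in the exact sign-flip permutation test (two-sided), the smallest p that 10 libraries allow. The difference between Rplp1 and Rplp2 was -12.0 ± 2.01 nt and that between Rplp0 and Rplp1 -5.62 ± 2.15 nt, each with the same exact p of 0.00195. Tails under 30 nt were a larger share of the reads in Rplp0 than in Rplp1 by 0.577 ± 0.561 percentage points (higher in 8 of 10 libraries, exact p = 0.0156) and than in Rplp2 by 0.782 ± 0.690 points (9 of 10 libraries, exact p = 0.00391). Between Rplp1 and Rplp2 that share differed by 0.205 ± 0.558 points (higher in Rplp1 in 5 of 10 libraries, exact p = 0.283). Tails of 30 to 90 nt, the range the study calls ∼60-nt, held 16.0 ± 3.80 points more of the Rplp0 reads and 11.4 ± 1.96 points more of the Rplp1 reads than of the Rplp2 reads (each higher in 10 of 10 libraries, exact p = 0.00195), and 4.62 ± 3.22 points more of the Rplp0 than of the Rplp1 reads (9 of 10 libraries, exact p = 0.00586). These p-values come from 9 comparisons and are not adjusted.

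The first question of the comparison between siRNAs was whether tails of these mRNAs became shorter after the knockdown of Larp1. Rplp1 tails were shorter in siLarp1 cells at both times. The median tail of Rplp1 was 94.3, 99.5 and 94.0 nt in the siCtl libraries of 24 h and 90.2, 92.2 and 91.7 nt in the siLarp1 libraries. It was 89.5 and 90 nt in siCtl and 83.1 and 87.7 nt in siLarp1 at 48 h. No siLarp1 library overlapped a siCtl library of its time point.

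The difference was -4.57 nt at 24 h (exact permutation p = 0.1, two-sided, the smallest that 3 against 3 libraries allow) and -4.35 nt at 48 h (exact p = 0.33, the smallest for 2 against 2). With labels permuted within each time point the mean difference of -4.46 nt gave an exact p of 0.0167, the smallest of the 120 arrangements. It was -4.18 nt with an exact p of 0.05 without siLarp1 library 19 and -4.33 nt with the same p without siCtl library 25. Leaving out 1 library gives fewer arrangements, but an exact p of 0.0167 was still reached without siCtl library 19, 21 or 22. At 24 h it was -2.81 nt without siCtl library 21, and at 48 h -2.06 nt without siLarp1 library 24 and -6.63 nt without siLarp1 library 25. The 12 comparisons of this kind (3 members and 4 measures) are not adjusted for their number. In the fit of the mean log2 tail across all genes with limma, the change of Rplp1 was -0.07 ± 0.02 (SE) at 24 h with an adjusted p of 0.0764, and -0.08 ± 0.02 at 48 h with an adjusted p of 0.160. At 24 h the libraries of the same number also shared a barcode, and with the library number as a block the change was -0.06 and its adjusted p was 0.00381.

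Rplp2, the member with the longest tails, gave medians of 106, 110 and 107 nt in the siCtl libraries of 24 h and 104, 105 and 101 nt in the siLarp1 libraries. At 48 h they were 103 and 98.6 nt in siCtl and 96.3 and 102 nt in siLarp1. The groups were apart at 24 h and overlapped at 48 h. The difference was -3.92 nt at 24 h and -1.66 nt at 48 h, and over both time points -2.79 nt with an exact p of 0.133. At 48 h it was -3.80 nt in the first sequencing run of the pool and 3.11 nt in the second. Taking the mean tail in place of the median gave -2.76 nt over both time points and an exact p of 0.0333.

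Rplp0, the member with the shortest tails, gave medians of 88.1, 91.0 and 87.1 nt in the siCtl libraries of 24 h and 84.1, 85.1 and 89.1 nt in the siLarp1 libraries. At 48 h they were 81.8 and 86.2 nt in siCtl and 80.9 and 82.7 nt in siLarp1. The groups overlapped at both times. The difference over both time points was -2.40 nt with an exact p of 0.133. The mean tail gave -3.04 nt and an exact p of 0.0167.

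Of all genes tested, 0.257% were called in mean log2 tail at 24 h (5 of 1945, adjusted p under 0.05) and 0% at 48 h (0 of 843, where 35 genes were above and 42 below 0 at an unadjusted p under 0.05 in limma), and none of the 3 members was called. All 3 members had a negative estimate at both times, between -0.07 and -0.06 on the log2 scale at 24 h and between -0.08 and -0.04 at 48 h, beside a median over all genes tested of 0.01 at either time. Among the 76 other ribosomal protein genes the median was -0.07 at 24 h and -0.04 at 48 h, with 75 and 59 of them below 0. With the library number as a block 31 genes were called at 24 h, Rplp1 among them. In the fit with no block, leaving out 1 library at 24 h gave 18 genes without siCtl library 22, 2 without siCtl library 19 and 1 without siLarp1 library 19, 21 or 22, and at 48 h it gave 13 without siLarp1 library 25. Medians that lay below every siCtl library of the time point were found for 2 of 3 members at 24 h (Rplp1 and Rplp2), against 5.76% of all genes and 21 of 76 other ribosomal protein genes, and for 1 of 3 at 48 h (Rplp1), against 12.1% of all genes and 13 of 76.

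**Figure D2:**
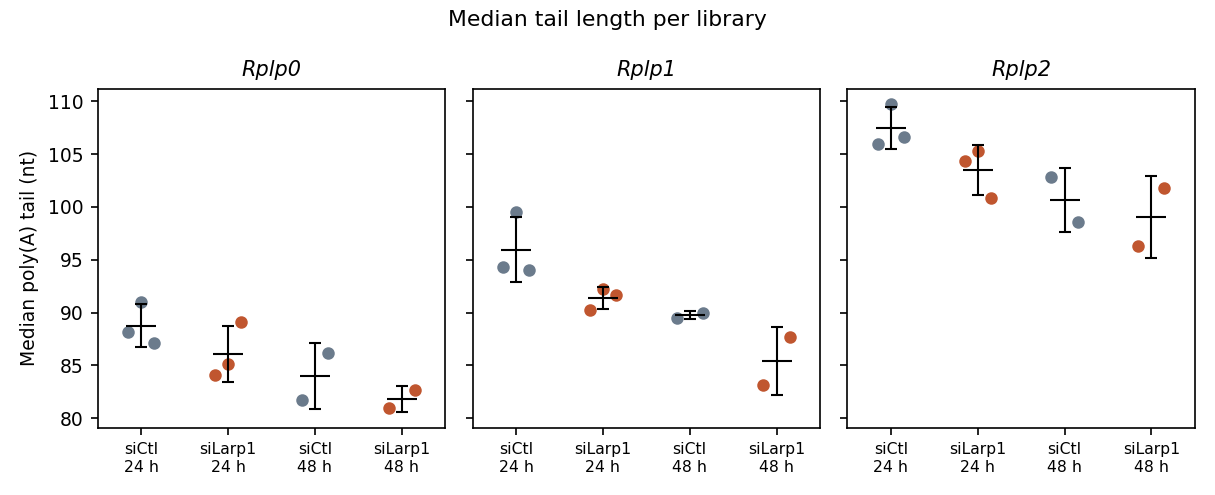
Median poly(A) tail length in nt (y axis, not starting at 0) of Rplp0, Rplp1 and Rplp2 in each library, by treatment and time. Points are libraries, horizontal bars the group mean and whiskers 1 SD; the order Rplp2, Rplp1, Rplp0 held in all 10 libraries, and Rplp1 in siLarp1 lay below siCtl at 24 h (91.4 against 95.9 nt) and at 48 h (85.4 against 89.8 nt).

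The tails were also counted in classes of length. The share of Rplp1 tails of 30 to 90 nt was 44.1%, 40.3% and 45.5% in the siCtl libraries of 24 h and 48.4%, 46.7% and 47.9% in the siLarp1 libraries. In the 48 h libraries it was 48.7% and 49.2% with siCtl and 55.3% and 50.6% with siLarp1. All siLarp1 libraries were above the siCtl libraries of their time, as in 5.14% of all genes and 17 of 76 other ribosomal protein genes at 24 h and in 9.73% of all genes and 7 of 76 at 48 h. The other 2 members overlapped at both times. The mean difference over both time points was 4.19 percentage points (exact p = 0.0167, the smallest the test allows). Without siCtl library 24 it was 4.05 points with an exact p of 0.0667 and without siCtl library 25 it was 4.32 points with an exact p of 0.05. The same difference was 0.843 points for Rplp0 (exact p = 0.55) and 1.84 points for Rplp2 (exact p = 0.317).

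In Rplp1 the class of 30 to 60 nt held 14.3% ± 1.34 of the reads in siCtl and 17.5% ± 0.592 in siLarp1 at 24 h (SD, n = 3), and 18.9% ± 0.515 and 21.4% ± 0.144 at 48 h (SD, n = 2). In Rplp0 that class held 17.7% ± 2.19 and 20.9% ± 1.86 at 24 h and 21.6% ± 0.783 and 24.8% ± 0.152 at 48 h. In Rplp2 it held 9.30% ± 1.01 and 11.5% ± 1.77 at 24 h and 12.5% ± 0.020 and 13.1% ± 1.81 at 48 h. The class of 60 to 90 nt differed less in Rplp1, with 29.0% ± 1.46 in siCtl and 30.1% ± 0.272 in siLarp1 at 24 h. In Rplp0 at 48 h it was smaller in siLarp1, with 28.6% ± 0.414 against 32.4% ± 1.83, so that the class of 30 to 90 nt joins ranges that differed in opposite directions there. The tail below which the shortest 10% of the Rplp0 reads lay was 46.0 and 49.4 nt in siCtl and 41.7 and 42.5 nt in siLarp1 at 48 h. The classes of 30 nt width were not tested.

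**Figure D3:**
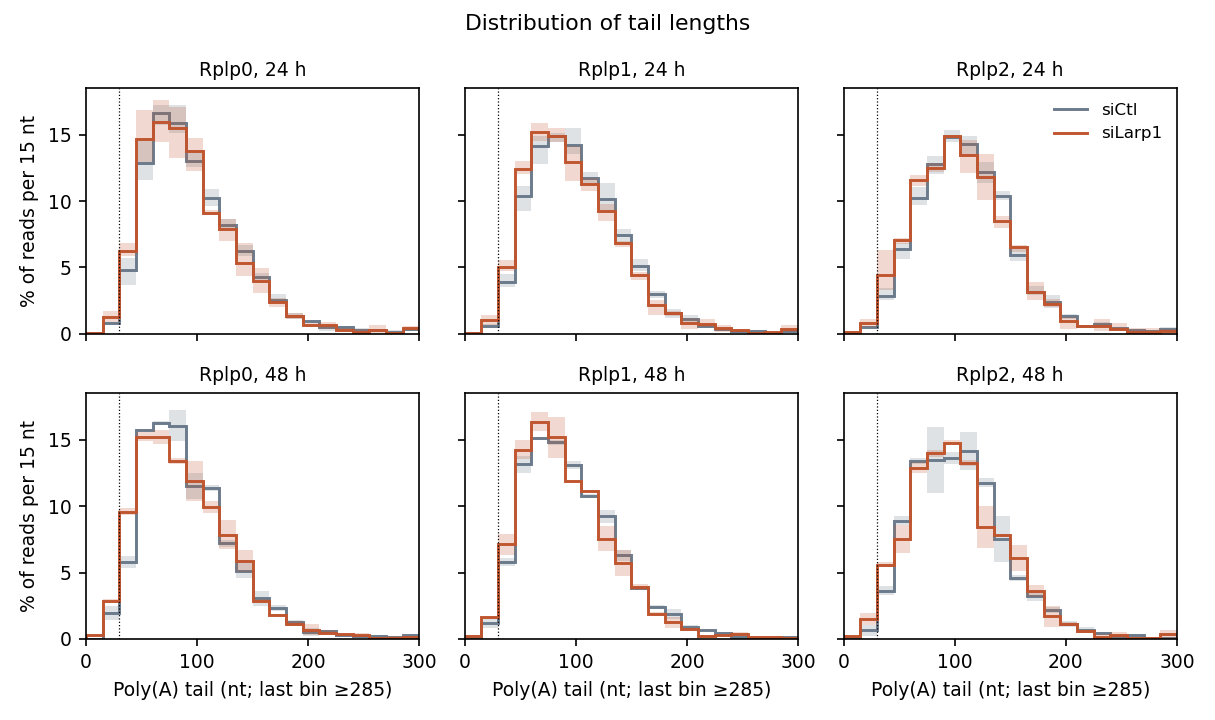
Distribution of poly(A) tail lengths of the 3 members at 24 h (top) and 48 h (bottom), as the percentage of reads (y axis) per 15 nt of tail (x axis, last bin from 285 nt), for siCtl in grey and siLarp1 in orange. Lines are group means, shaded bands the range over libraries and the dotted line 30 nt; over the class of 30 to 60 nt the siLarp1 group mean is the higher one in each panel, for example 17.5% against 14.3% of Rplp1 reads at 24 h.

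The second question was whether more of these mRNAs carried tails under 30 nt. Such tails were rare in all 3 members, with 196 reads of Rplp0, 192 of Rplp1 and 67 of Rplp2 in all libraries together. In Rplp0 the share under 30 nt was 0.892%, 0.923% and 0.952% in the siCtl libraries of 24 h and 1.12%, 0.999% and 1.75% in the siLarp1 libraries. In the 48 h libraries it was 2.50% and 1.45% with siCtl and 3.18% and 3.15% with siLarp1. The groups did not overlap at either time.

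The mean difference for Rplp0 was 0.366 percentage points at 24 h (exact p = 0.1) and 1.19 points at 48 h (exact p = 0.33), and over both time points 0.778 points with an exact p of 0.0167. This p was 0.05 without siCtl library 19, 21 or 22, 0.183 without siLarp1 library 24 and 0.167 without siLarp1 library 25, with differences of 0.769 to 0.786 points. The difference was 0.515 points without siCtl library 25, with an exact p of 0.0167. At 24 h it was 0.135 points without siLarp1 library 22, and at 48 h 0.663 points without siCtl library 25. Among reads that began near the commonest first base it was 0.724 points with an exact p of 0.1. The logistic fit across all genes gave Rplp0 a log2 odds ratio of 0.53 ± 0.29 (SE) at 24 h, with an adjusted p of 0.573, and of 0.76 ± 0.31 at 48 h, with an adjusted p of 0.302.

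For Rplp1 the share was 0.401%, 0.793% and 0.653% in the siCtl libraries of 24 h and 1.44%, 1.01% and 0.740% in the siLarp1 libraries. At 48 h the siCtl libraries had 1.64% and 0.788% and the siLarp1 libraries 1.79% and 1.90%. The groups overlapped at 24 h and were apart at 48 h. The difference over both time points was 0.541 points with an exact p of 0.0333. With barcode confidence of at least 0.9 it was 0.382 points with an exact p of 0.183. The exact p was 0.0667 without siCtl library 19, 0.05 without siCtl library 22 or 25 or siLarp1 library 19, and 0.15 without siLarp1 library 24 or 25, and without siCtl library 25 the difference was 0.328 points. The logistic fit gave adjusted p-values of 0.330 (24 h) and 0.396 (48 h).

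For Rplp2 the share was 0.549%, 0.489% and 0.420% in the siCtl libraries of 24 h and 0.543%, 1.05% and 1.21% in the siLarp1 libraries. At 48 h the siCtl libraries had 0.440% and 1.05% and the siLarp1 libraries 2.11% and 1.25%. The groups overlapped at 24 h by 1 library and were apart at 48 h. The difference over both time points was 0.692 points with an exact p of 0.0333, and 0.484 points with an exact p of 0.0833 among reads with a mapping quality of at least 10. With the library number as a block the exact p was 0.125, where 0.0625 is the smallest possible. In the test without the block the exact p was 0.05 without siCtl library 21 or 22, 0.1 without siCtl library 24 or siLarp1 library 24, and 0.0667 without siCtl library 25. The logistic fit gave adjusted p-values of 0.380 (24 h) and 0.411 (48 h).

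The depth limits these shares. In siCtl library 24 the Rplp2 share rests on 2 of 455 reads, with a 95% Wilson interval of 0.121% to 1.59%, and in the deepest case, Rplp1 in siCtl library 22, on 29 of 4444 reads with an interval of 0.455% to 0.936%. These intervals cover counting error only.

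**Figure D4:**
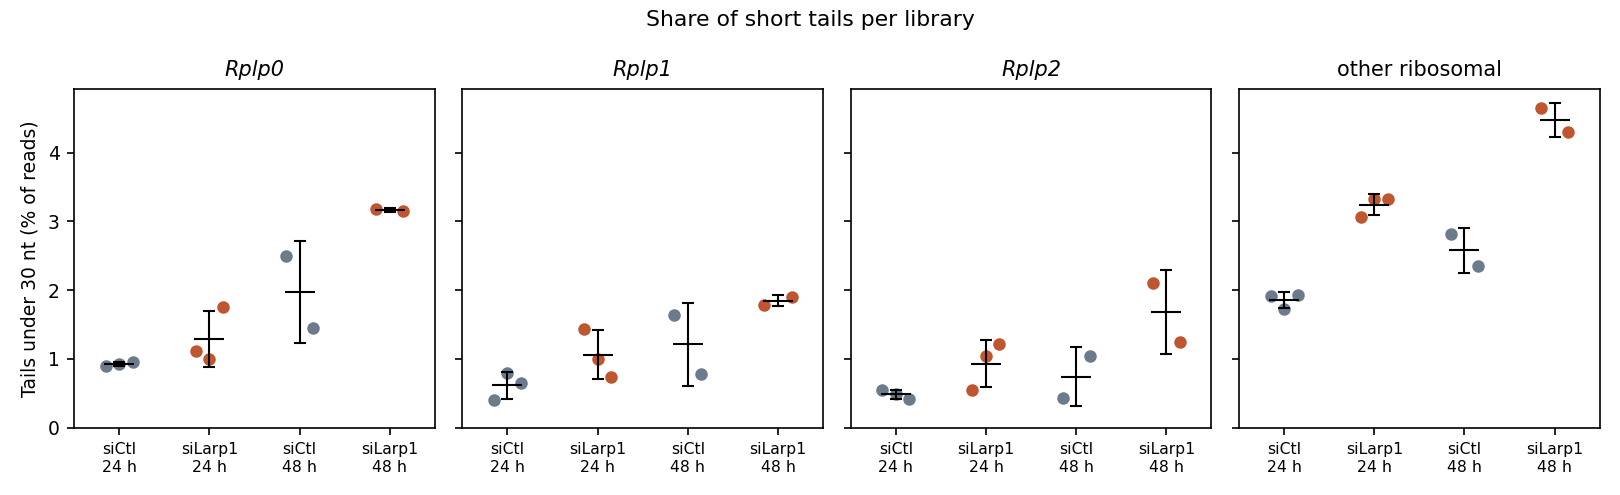
Percentage of reads with a tail under 30 nt (y axis, from 0) in each library for the 3 members and for the reads of the 76 other ribosomal protein genes together. Points are libraries, horizontal bars the group mean and whiskers 1 SD; siLarp1 means lie above siCtl means in every panel, and at 48 h no library of one treatment overlaps one of the other.

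None of the members was called in the logistic fit, where 1.34% of all genes were called at 24 h (25 of 1867) and 0.729% at 48 h (6 of 823). All of the genes called were other ribosomal protein genes, 25 of 76 at 24 h and 6 of 76 at 48 h, and all were higher in siLarp1. The log2 odds ratios of the 3 members had a median of 0.71 at 24 h and 0.76 at 48 h, beside 0.87 and 0.91 for the 76 other ribosomal protein genes and 0.31 and 0.49 for all genes tested. Shares above every siCtl library of the time point were found for 1 of 3 members at 24 h (Rplp0), against 6.22% of all genes and 50 of 76 other ribosomal protein genes, and for 3 of 3 at 48 h, against 27% of all genes and 57 of 76. Ordered by the rise in percentage points, the members stood at ranks 71 to 73 of the 79 ribosomal protein genes at 24 h and at ranks 53, 59 and 69 at 48 h. The number of genes called was 0 without siCtl library 19 or 21, 3 without siCtl library 22, 12 without siLarp1 library 19 and 14 without siLarp1 library 22 at 24 h, and 0 without any 1 of the 4 libraries at 48 h.

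Short tails were a smaller share of the pooled stalk mRNA reads than of the reads of the other ribosomal protein mRNAs, in siCtl cells as in siLarp1 cells. The reads of the 3 members together had 0.691% ± 0.090 tails under 30 nt in siCtl at 24 h (SD, n = 3) and 1.10% ± 0.080 in siLarp1, and at 48 h 1.36% ± 0.437 and 2.24% ± 0.102 (SD, n = 2). The reads of the 76 other ribosomal protein genes had 1.73% to 1.93% in siCtl and 3.07% to 3.33% in siLarp1 at 24 h, and 2.35% to 2.81% and 4.30% to 4.65% at 48 h. The members' share was the lower one in each of the 10 libraries, with log2 odds differences from -1.73 to -0.75. As a rank in siCtl at 24 h, the middle of the 79 genes was 1.60%, with Rplp0 at rank 58 from the highest, Rplp1 at rank 72 and Rplp2 at rank 75. In siCtl at 48 h Rplp0 was nearer the middle, with 1.98% against 2.28% and rank 44 of 78 genes. Rplp1 was at rank 63 there and Rplp2 at rank 70.

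In tail measures, the members' responses were set beside that of the other ribosomal protein mRNAs, and no such difference passed the exact test with the settings used throughout. On the log2 odds scale within libraries, the siLarp1 minus siCtl difference of each member less that of the 76 genes was -0.22 for Rplp0 (exact p = 0.217), -0.08 for Rplp1 (exact p = 0.817) and 0.21 for Rplp2 (exact p = 0.6) over both time points. For the median tail it was -0.840 nt for Rplp0 (exact p = 0.533), -2.90 nt for Rplp1 (exact p = 0.0667) and -1.23 nt for Rplp2 (exact p = 0.6). The Rplp1 median difference was -3.09 nt with reads of all quality tags (exact p = 0.0333) and -3.41 nt without siLarp1 library 21 (exact p = 0.0167), and between -3.33 and -1.28 nt, with an exact p from 0.05 to 0.167, under the other settings tried. With tails under 40 nt as the short class the odds difference of Rplp2 was 0.47 with an exact p of 0.0333. These are 9 comparisons with the reads below, not adjusted.

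Values on the sequencing itself moved with the treatment at 24 h as well. The share of transcript alignments with a PASS tail was 82.1% to 82.8% in siCtl and 84.9% to 85.5% in siLarp1 at 24 h, and 83.9% to 84.4% and 84.2% to 84.8% at 48 h. The median tail of all kept reads was 102 to 104 nt in siCtl and 101 to 104 nt in siLarp1 at 24 h. At 48 h it was 97.1 to 98.6 nt and 97.7 to 103 nt, and the groups overlapped at both times. The median of the pooled reads of the other ribosomal protein genes was 95.3 to 101 nt in siCtl and 92.9 to 94.7 nt in siLarp1 at 24 h. At 48 h it was 89.9 to 92.1 nt and 89.4 to 93.2 nt. Those groups were apart at 24 h, as for Rplp1, and overlapped at 48 h. RNA standards had over 10 reads in 3 libraries only, where their median tail was 62.0 nt in siCtl library 22, 62.0 nt in siLarp1 library 22 and 62.9 nt in siLarp1 library 25. Their share of tails under 30 nt was 10.1%, 14.3% and 16.3% in these 3 libraries, in the same order, and thus higher in the siLarp1 libraries. Library 25 is of 48 h and the siCtl library of 24 h. Per the study's methods, some standards had an encoded tail length and others had a tail added by poly(A) polymerase. This share therefore also depends on which of them were read. The standard of 16 nt had 33 reads in siCtl at 24 h, 22 in siLarp1 at 24 h and 5 in siLarp1 at 48 h. Its measured median was 28.2, 25.6 and 14.9 nt in these groups, in the same order. The part of the pools and of the tail estimate in these values was not tested. Within the 1 pool of 48 h, the siLarp1 less siCtl difference of the Rplp1 median was -4.78 nt in the first run and -2.28 nt in the second, and the short-tail share was higher for all 3 members in both runs, by 0.609 to 1.35 points and by 0.695 to 0.847 points.

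None of the 12 differences between the effects at 48 h and at 24 h passed the exact test, with p from 0.0833 to 0.983. The effect on the Rplp0 share under 30 nt was 0.822 points larger at 48 h (exact p = 0.45).

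The third question was whether the mRNA levels changed. In bulk RNA, fewer cells and less RNA per cell cannot be told apart, and a level here is a share of the kept reads. Rplp1 had 9464, 9891 and 10496 RPM in the siCtl libraries of 24 h and 11013, 10399 and 11187 in the siLarp1 libraries. At 48 h the siCtl libraries had 9218 and 8522 and the siLarp1 libraries 9650 and 9589. One siCtl library lay above the lowest siLarp1 library at 24 h, and the groups were apart at 48 h.

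The mean log2 difference of Rplp1 over both time points was 0.12, 1.09 times the siCtl level, with an exact p of 0.0333. It was 0.09 under median-of-ratios scaling (exact p = 0.0667) and with barcode confidence of at least 0.9 (exact p = 0.0833), and the exact p was 0.05 without siCtl library 19 or 21 or siLarp1 library 19 or 22, and 0.0667 without siLarp1 library 24 or 25. The share of Rplp1 alignments with a PASS tail was 85.6% to 85.9% in siCtl and 88.7% to 89.4% in siLarp1 at 24 h, and 86.4% to 87.2% and 88.1% to 89.9% at 48 h. With all quality tags kept the log2 difference was 0.10 with an exact p of 0.0333. In the fit across all genes limma voom gave adjusted p-values of 0.763 (24 h) and 0.671 (48 h). With the library number as a block at 24 h, the log2 change was 0.12 ± 0.02 (SE) and the adjusted p 0.00291.

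Rplp0 had 6965, 6925 and 6944 RPM in the siCtl libraries of 24 h and 6724, 6736 and 6908 in the siLarp1 libraries. In the 48 h libraries it had 6379 and 5781 with siCtl and 6590 and 6321 with siLarp1. The siLarp1 libraries were all lower at 24 h, by -0.03 on the log2 scale (exact p = 0.1), as in 7.61% of all genes and 4 of 76 other ribosomal protein genes. The groups overlapped at 48 h, where levels below every siCtl library were found for 0 of 3 members, against 20.4% of all genes. Over both time points the log2 difference was 0.03 (exact p = 0.733).

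Rplp2 had 4401, 4160 and 4497 RPM in the siCtl libraries of 24 h and 4605, 4291 and 4724 in the siLarp1 libraries. After 48 h it had 4037 and 3744 in siCtl and 3511 and 3990 in siLarp1. The groups overlapped at both times. The log2 difference over both time points was 0.003 (exact p = 0.967).

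In abundance 0% of all genes were called at 24 h (0 of 1945) and 0% at 48 h (0 of 843) in limma voom. At an unadjusted p under 0.05 there were 46 higher and 65 lower genes at 24 h and 20 higher and 33 lower ones at 48 h. With the library number as a block 12 genes were called at 24 h, Rplp1 among them, and 3 at 48 h, and with no block 2 were called at 24 h without siCtl library 22. Levels above every siCtl library were found for 0 of 3 members at 24 h, against 4.27% of all genes, and for 1 of 3 at 48 h (Rplp1), against 17.6% of all genes and 4 of 76 other ribosomal protein genes. The other ribosomal protein genes had a median log2 change of -0.004 at 24 h and -0.15 at 48 h, where 65 of 76 were below 0 while Rplp0 and Rplp1 stood at 0.11 and 0.13. Against the reads of those 76 genes within each library, the log2 difference over both time points was 0.18 for Rplp1 (exact p = 0.0333), 0.08 for Rplp0 (exact p = 0.4) and 0.06 for Rplp2 (exact p = 0.25). For Rplp1 it ran from 0.14 to 0.21 over the alternatives tried, with an exact p from 0.0167 to 0.0625, and the exact p was 0.05 without siCtl library 19 or 21 or siLarp1 library 19, 22 or 24. The 3 members were 6.76% to 7.16% of the ribosomal protein reads in siCtl and 6.93% to 7.40% in siLarp1 at 24 h, and 6.19% to 6.78% and 7.21% to 7.47% at 48 h.

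The ratio between members was taken within each library. That of Rplp1 to Rplp0 reads was 1.43 ± 0.077 in siCtl and 1.60 ± 0.050 in siLarp1 at 24 h (SD, n = 3). At 48 h it was 1.46 ± 0.021 and 1.49 ± 0.037 (SD, n = 2), where the groups overlapped. That of Rplp2 to Rplp0 was 0.627 ± 0.024 and 0.669 ± 0.027 at 24 h and 0.640 ± 0.010 and 0.582 ± 0.070 at 48 h. These ratios are given without a test.

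**Figure D5:**
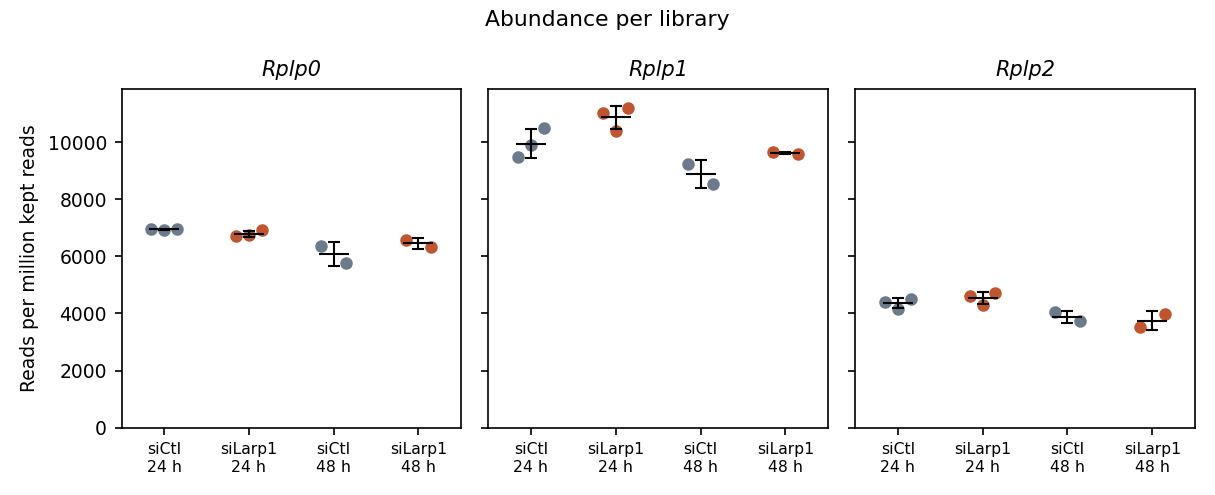
Reads per 1000000 kept reads (RPM, y axis, from 0) of Rplp0, Rplp1 and Rplp2 in each library, by treatment and time. Points are libraries, horizontal bars the group mean and whiskers 1 SD; for Rplp1 the siLarp1 mean is 10866 against 9950 at 24 h and 9619 against 8870 at 48 h, and for Rplp0 at 24 h the siLarp1 libraries lie below all siCtl libraries.

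The proteins around the stalk were taken as a list of 10 genes that held RPL12, which forms the stalk's base with P0, the elongation factors and other GTPases that dock on the stalk, and the kinase GCN2 (Eif2ak4), which P1 and P2 activate. Of these 7 had enough reads for the fits at 24 h and 6 at 48 h, and 0 were called in short-tail share, in mean tail or in abundance at either time. Their median log2 odds ratio of a short tail was 0.32 at 24 h and 0.19 at 48 h, beside 0.31 and 0.49 for all genes tested. Rpl12 had a median tail of 102 ± 4.22 nt in siCtl and 96.5 ± 1.41 nt in siLarp1 at 24 h (SD, n = 3), and a log2 tail change of -0.07 ± 0.03 (SE, adjusted p = 0.472), close in size to that of the members. Eef1a1, for the factor that carries tRNA to the ribosome, had a log2 tail change of -0.03 ± 0.02 at 24 h (adjusted p = 0.761), and Eef2, for the translocation factor, one of 0.05 ± 0.04 (adjusted p = 0.841).

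A second list held 7 factors of late large subunit assembly, among them Mrto4, which occupies the place of P0 on the precursor particle until the stalk is built. Only 3 of the 7 had enough reads at 24 h and 2 at 48 h, and 0 were called in any of the 3 measures. Mrto4 had 289 ± 15.7 RPM in siCtl and 310 ± 33.6 in siLarp1 at 24 h (SD, n = 3), and 277 ± 98.2 and 247 ± 78.9 at 48 h (SD, n = 2). Its level was thus a small part of that of Rplp0, and its log2 change of 0.12 ± 0.16 (SE) at 24 h had an adjusted p of 0.977.

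Likeness was measured over the 10 libraries among the 154 genes with at least 100 kept reads in each, as Pearson's r, which describes libraries that share pools and time points. In median tail the genes most like Rplp1 were Rpsa (r = 0.961), Rps6 (0.955) and Rps23 (0.943), and Rpsa (0.938) and Rps20 (0.935) were among the 3 most like Rplp0. Rplp2 was most like Rplp1 (0.888), then Rps24 (0.885) and Rps6 (0.859). Rplp0 and Rplp2 had an r of 0.603, and Rplp2 stood at rank 15 among the genes most like Rplp1.

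In log2 RPM the nearest genes of Rplp0 were Atp5g3 (r = 0.819), Prdx1 (0.810) and Chchd10 (0.809), and those of Rplp1 were Prdx1 (0.892), Ftl1 (0.858) and Cox7c (0.846). Rplp2 was closest to the ribosomal protein genes Rpl31 (0.895), Rpl29 (0.892) and Rps26 (0.885). Among themselves the members had r from 0.650 to 0.756. No other member was among the 3 nearest genes of any member in this measure.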

How the data were processed

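Direct RNA sequencing reads of 10 libraries were analysed. Per the labels and the study's methods, the authors called bases with Guppy, demultiplexed with Deeplexicon, aligned with minimap2 2.20 to mm10 transcripts, repeats and RNA standards, and estimated tails with Nanopolish. The deposited table gives for each alignment a tail length in nt, a barcode confidence as a fraction and a mapping quality as a score, with no counts or normalized values. Its library names do not show which labelled replicate each is.

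Kept reads were mRNA alignments tagged PASS without mitochondrial transcripts and pseudogenes (112720 to 423398 per library). Reads were counted per gene, scaled to 1000000 kept reads (RPM), and tails were classed as under 30 nt or 30 to 90 nt. Differences were tested by exact permutation over libraries (two-sided), within each time point and stratified over both. Genes with at least 100 kept reads at a time point were fitted with limma 3.58.1 in R 4.3.3: quasi-binomial logistic models with moderated dispersions, mean log2(tail + 1), and voom for abundance, with Benjamini-Hochberg adjustment over all genes. The scripts were tested on simulated data. Pooled reads of the 3 members are given without p-values. The comparison of the pooled members with the other ribosomal genes was planned, and that of each member alone was added after seeing the data. The members and gene lists were chosen with earlier results of these data known. Named were the 3 members with every transcript of at least 1% of their reads, Larp1, Rpl12, Eef1a1, Eef2, Mrto4, and for each member the 3 genes most alike in each of 2 measures, of which 1 is not reported here. Same-numbered libraries shared a barcode at 24 h. Their deviations from the group means were correlated over 154 genes. The correlation at 24 h was 0.341, 0.596 and 0.596 in log2 RPM and 0.118, 0.291 and 0.412 in median tail. At 48 h it was 0.143 in log2 RPM and -0.096 in median tail. The main tests and fits took the libraries as unpaired at both times. The library number as a block was another setting, also at both times. Sequences and coordinates are from GENCODE vM21 (GRCm38), in which the coordinates of the members' main transcripts were the same as in the deposited table.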

Additional observations from a re-analysis of the deposited data

How the results depend on the processing

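Of the values recomputed under other settings, 465 kept their direction and their side of the threshold, 10 changed direction, 18 no longer passed the threshold, 6 newly passed it and 19 with no test of their own moved. With 1 library left out the numbers were 362, 16, 31, 1 and 20. Shares below are differences in percentage points, abundances log2 differences and p exact permutation values over both time points unless a time is given. The cause of these changes was not tested. With 1 library left out there are fewer arrangements, but an exact p of 0.0167 could still be reached, as for the Rplp1 median without siCtl library 19.

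With reads of all quality tags the Rplp0 short-tail share differed by 1.10 (exact p = 0.05), that of the 3 members together at 48 h by 1.17, and the Rplp1 median less that of the other ribosomal genes by -3.09 nt (exact p = 0.0333). With barcode confidence of at least 0.9 the Rplp1 short-tail share gave 0.382 (exact p = 0.183) and its abundance 0.0948 (exact p = 0.0833), and with 1 alignment asked for as well, an added setting, 0.383 and 0.0942. With a mapping quality of at least 10 Rplp2 gave 0.484 in short-tail share, -0.018 in abundance and -0.039 in log2 odds against the other ribosomal genes. Reads that start near the 5′ end, added after seeing the data, gave 0.724 for the Rplp0 share (exact p = 0.1) and -0.0014 for the Rplp2 abundance. With a short class under 20 nt the shares were 0.187 for Rplp0 (exact p = 0.05), 0.113 for Rplp1 (exact p = 0.15), 0.208 for Rplp2 (exact p = 0.133) and, pooled, 0.0902 at 24 h, 0.219 at 48 h and 0.155 over both, and the Rplp1 odds against the other ribosomal genes 0.062. Under 40 nt the pooled shares were 1.36, 2.43 and 1.90, and the odds 0.19 for Rplp0, 0.0064 for Rplp1, 0.47 for Rplp2 (exact p = 0.0333) and 0.14 pooled.

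The mean tail gave -3.04 nt for Rplp0 (exact p = 0.0167) and -2.76 nt for Rplp2 (exact p = 0.0333), and the geometric mean -3.69 and -3.65 nt. Median-of-ratios size factors gave abundances of -0.0025 for Rplp0, 0.0928 for Rplp1 (exact p = 0.0667), -0.027 for Rplp2 and 0.022 pooled at 48 h. In run 2 of the 48 h pool the Rplp0 abundance differed by -0.028 and the Rplp2 median by 3.11 nt.

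With the library number as a replicate block the exact p cannot fall below 0.0625. It took that value for the Rplp0 short-tail share (0.778), the Rplp1 short-tail share (0.541), 30 to 90 nt share (4.19), median (-4.46 nt), abundance (0.12) and reads against the other ribosomal genes (0.18), and 0.125 for the Rplp2 short-tail share (0.692). In the fits across genes the block gave 31 genes in tail length at 24 h and 1 at 48 h, and 12 and 3 in abundance. For short tails the block gave 522 genes at 24 h, where dispersions were estimated near 0, and 0 at 48 h, and with dispersions of at least 1, an added setting, 0 and 0. Apart from Rplp1 in tail length and abundance at 24 h, which the report gives, the block changed no call of a member in these fits. A minimum of 30 reads gave 43 genes at 24 h, and limma on the log2 odds 39 at 48 h.

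With 1 library left out, the difference over both time points ran from 0.515 to 1.04 in short-tail share for Rplp0, 0.328 to 0.753 for Rplp1 and 0.476 to 0.907 for Rplp2. The share of 30 to 90 nt ran from -0.056 to 1.78 for Rplp0 and 3.01 to 5.36 for Rplp1, the Rplp1 median from -5.60 to -3.32 nt, and the abundance from -0.0079 to 0.0631 for Rplp0, 0.0946 to 0.151 for Rplp1 and -0.043 to 0.0491 for Rplp2. Against the other ribosomal genes, the log2 odds ran from -0.27 to 0.117 for Rplp1 and -0.12 to 0.535 for Rplp2, the median from -3.41 to -2.47 nt for Rplp1 and -2.85 to 0.396 nt for Rplp2, and the Rplp1 reads from 0.144 to 0.21. At 24 h the short-tail share ran from 0.135 to 0.511 for Rplp0, 0.258 to 0.607 for Rplp1 and 0.308 to 0.643 for Rplp2, and the median from -4.16 to -1.52 nt for Rplp0, -5.53 to -2.81 nt for Rplp1 and -4.84 to -2.61 nt for Rplp2. At 48 h the short-tail share ran from 0.663 to 1.71 for Rplp0, 0.211 to 1.06 for Rplp1 and 0.504 to 1.37 for Rplp2, the median from -6.63 to -2.06 nt for Rplp1, -4.35 to 0.0625 nt for Rplp0 and -4.40 to 1.08 nt for Rplp2, the Rplp2 abundance from -0.15 to 0.0376, the pooled short-tail share from 0.568 to 1.19 and the pooled abundance from 0.014 to 0.136. The genes called ran from 0 to 20 (24 h) and 0 (48 h) in short tails, 1 to 18 and 0 to 13 in tail length, and 0 to 2 and 0 in abundance.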
